A study of Mus musculus with 8 samples.

Results

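Naïve CD4+ T cells that meet antigen can become T_H_1 cells, which make interferon-γ (IFN-γ) against intracellular pathogens, or T_H_2 cells, which make interleukin-4 (IL-4), IL-5 and IL-13 against helminths and in allergy. The signal of interleukin-12 (IL-12) reaches the nucleus through its receptor and STAT4, and IFN-γ induces the T-box factor T-bet. T-bet then opens the IFN-γ gene, whereas IL-4 acts through its receptor and STAT6 to raise GATA3. Transforming growth factor-β (TGF-β) restrains both programs while it induces *Foxp3*, and regulatory T cells can nevertheless carry T-bet or GATA3, so the same genes are read in cells polarized toward the regulatory fate.

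The genes described here are 7 genes of the T_H_1 lineage, *Tbx21*, *Ifng*, *Stat4*, *Cxcr3*, *Eomes*, *Runx3* and *Il12rb2*, and 3 of the T_H_2 lineage, *Gata3*, *Il4ra* and *Stat6*. They were taken by name from the gene count table, and all 10 were among its 11911 listed genes. RNA-seq was performed on 8 mouse libraries, 4 with the genotype *Foxp3 YFP-Cre* (called controls 1 to 4) and 4 with *Tdrd3 fl/fl/Foxp3 YFP-Cre* (called knockouts 1 to 4). Splenic naïve CD4+ cells on a C57BL/6J background had spent 36 hours with TGF-β, antibodies to CD3 and CD28 that stimulate the T cell receptor and its costimulator, and antibodies that neutralize IFN-γ and IL-4. This held for every culture, control or knockout. Both genotypes carry the *Foxp3*-driven Cre, which acts only in cells that have switched *Foxp3* on, and no sort for such cells is described before the RNA was taken, so a knockout library can include cells with intact *Tdrd3*. The age of these mice is not given in the sources used here. The question asked of these data is whether T_H_1 and T_H_2 genes differed between the genotypes.

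Levels are given as normalized CPM, the library-scaled counts that edgeR gives after TMM normalization. The listed genes summed to between 13258239 and 16001676 counts per library, and 3 counts, taken as the least that a library can show, corresponded to 0.188 to 0.225 CPM. Such limits cover counting error only.

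*Tdrd3* itself is a weak check of the labels, since a knockout library can include cells with intact *Tdrd3*. It had 18.8, 15.1, 9.95 and 17.7 CPM in controls 1 to 4 and 13.7, 10.7, 12.9 and 11.1 in knockouts 1 to 4. The library labelled control 3 was below all 4 knockouts, contrary to its label, with 142 counts beside 164 to 189 in knockouts. Whether that label is wrong was not tested. With a log2 fold change of −0.35 and an adjusted p of 0.496 in edgeR, *Tdrd3* was not called lower, nor was it in any of 17 alternatives. Its unadjusted P was 0.0370 in edgeR and was below 0.05 in 11 of the alternatives. Without the library labelled control 3 the log2 fold change was −0.51, with 4.84e-04 as its unadjusted P and 0.115 as its adjusted p. Values without it are therefore given beside the main result for several genes. *Foxp3* was at 110 ± 12.5 CPM (SD, n = 4) in controls and 88.4 ± 13.3 in knockouts, and was well detected in both genotypes. In the library labelled control 3, *Foxp3* was at 106.5 CPM, just above the highest knockout at 105.1. *Il2ra* was also above every knockout there, at 2370 CPM beside 2169 in the highest. *Ikzf2*, at 106.1 CPM, lay within the knockout range of 88.9 to 109.5. Levels of these genes do not show the genotype of that library. Fewer cells of a type and less RNA per cell cannot be told apart in such bulk RNA.

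*Il12rb2*, the inducible chain of the IL-12 receptor, was lower in knockouts, at 0.629 of its control level, but just missed the adjusted threshold, and neither the transcription factors nor the T_H_2 members showed a difference that the test could call. Of the 9 members that could be tested, none had an adjusted p below 0.05 in the quasi-likelihood F test of edgeR (adjusted over all tested genes by Benjamini and Hochberg's method), compared with 30 of 11317 tested genes, or 0.265%. The same count was 1 of 9 with DESeq2 and 1 of 9 with limma voom using library quality weights (the only form of voom run), in both cases *Il12rb2*, beside 0.689% and 0.839% of all tested genes. At an unadjusted P below 0.05, edgeR gave 1 of the 9 members, lower in knockouts, beside 9.3% of all tested genes in either direction, 4.91% lower and 4.38% higher. None of the members had genotypes without overlap, beside 4.89% of all tested genes. A count of 1 among 9 is close to what that background gives and is not a result about the members as a list.

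**Figure D1:**
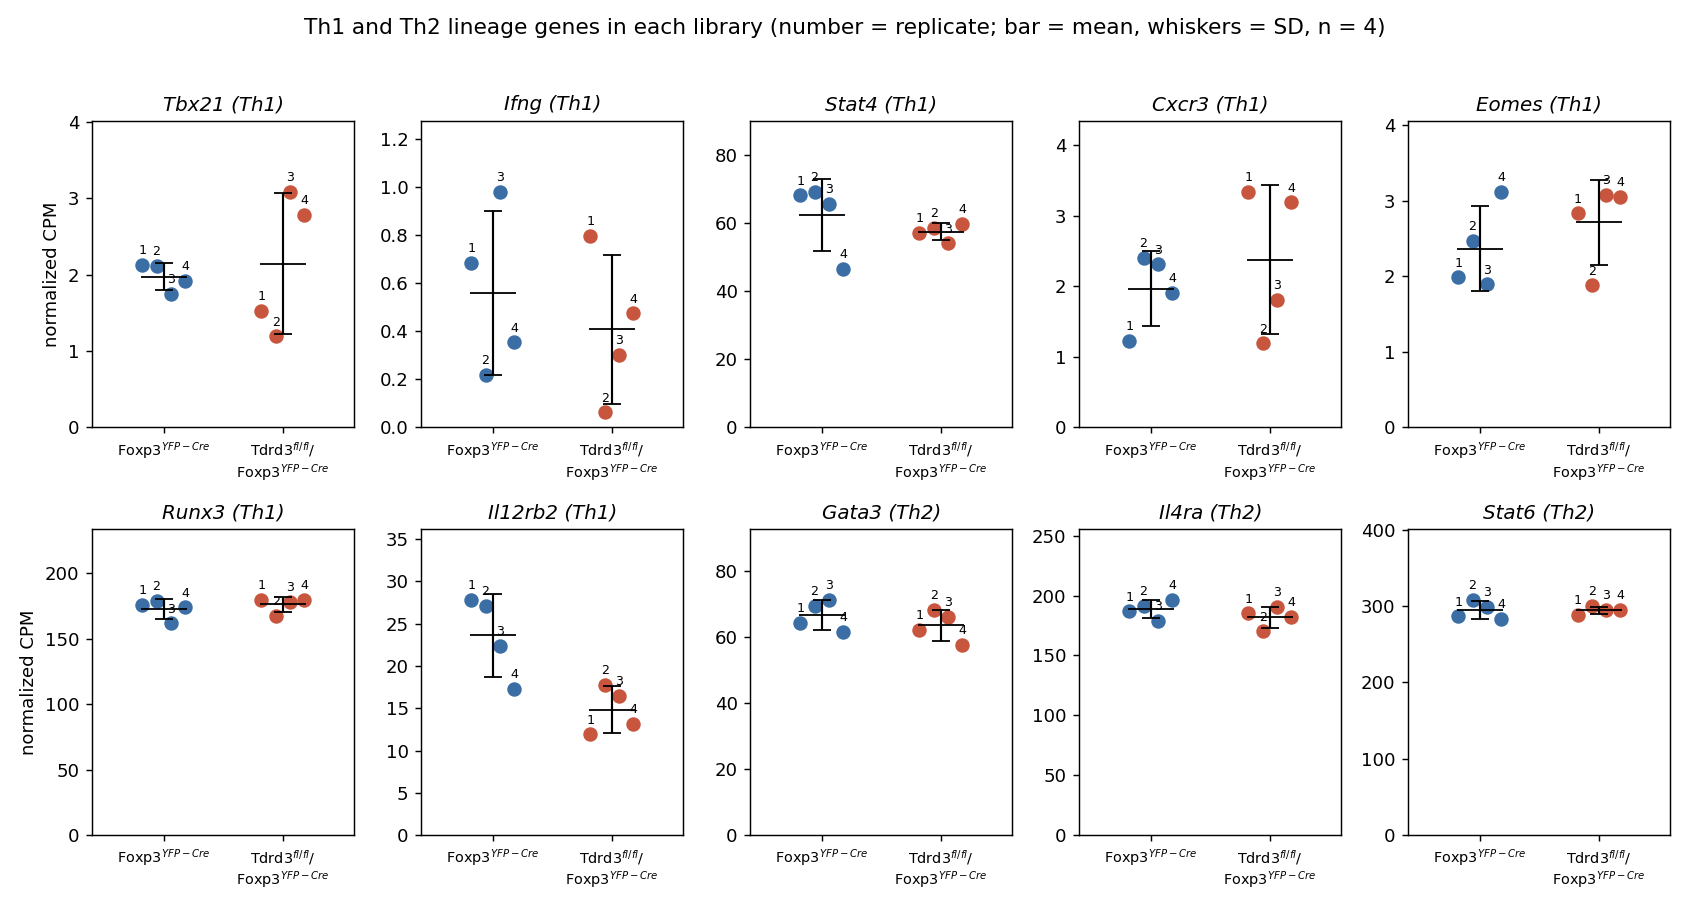
Normalized CPM (vertical axes, from 0) of each T_H_1 and T_H_2 gene in the 4 control (blue) and 4 knockout (red) libraries, numbered by replicate, with the mean and SD (n = 4). *Il12rb2* ranges from 17.3 to 27.9 in controls and from 11.9 to 17.8 in knockouts, and the 2 genotypes overlap for every gene shown.

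Among receptors, *Il12rb2* (ENSMUSG00000018341) pairs with *Il12rb1* to give a high-affinity IL-12 receptor and is normally raised by T cell activation and IFN-γ. On the minus strand of chromosome 6 (GRCm39) it spans 67268302 to 67353172. Controls 1 to 4 had 27.9, 27.1, 22.4 and 17.3 CPM of *Il12rb2*, and knockouts 1 to 4 had 11.9, 17.8, 16.5 and 13.2. Control 4 was the lowest control and lay just under knockout 2, the highest knockout, and apart from this pair every knockout was below every control. The means were 23.6 ± 4.89 CPM (SD, n = 4) in controls and 14.8 ± 2.75 in knockouts. This is a log2 fold change of −0.67 (standard error 0.141), or 0.629 of the control level with a 95% confidence interval from 0.512 to 0.772. By unadjusted P, 1.42e-04 in edgeR, the gene ranked 32 of 11317, with 0.0503 as its adjusted p. The two-sided exact permutation test gave p = 0.0571, where 4 libraries against 4 allow no less than 0.0286.

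The call on *Il12rb2* moved with the method and with single libraries, whereas its direction did not. In all 17 alternatives it was lower in knockouts, with log2 fold changes from −0.79 to −0.46, and its unadjusted P was below 0.05 in each of them. Its adjusted p was below 0.05 in 7 alternatives and ranged from 0.00297 without control 4 to 1.00 without knockouts 1 and 4, the last being chosen after seeing the data. DESeq2 gave an adjusted p of 0.00424 and limma voom with quality weights 0.0138. Without the library labelled control 3 the log2 fold change was −0.70 and the edgeR adjusted p 0.103. Without knockout 1 or knockout 4, the pair of lowest libraries, the adjusted p was 0.256 or 0.267, and without control 1 or control 2 it was 0.225 or 0.153. Without knockout 3 it was 0.0795, and without knockout 2 it was 0.00799.

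Counts of *Il12rb2* ran from 164 in knockout 1 to 407 in control 1, so counting error was small beside the differences. The coefficient of variation of its level was 20.7% in controls and 18.6% in knockouts, where counting error alone gives 5.46% and 6.82%. At its 3′ end the gene shares sequence with *Serbp1*, an abundant RNA-binding protein gene on the opposite strand: 1519 of the 3794 exon bases of *Il12rb2* lie within *Serbp1* exons, and most of them are in the last exon, where the shared stretch runs from 67268302 to 67269720. None of the 8 estimated counts of *Il12rb2* is within 0.02 of a whole number, as for 13.4% of all listed genes. Whether strand was used in counting is not given in the sources used here, and without it, reads of the pair cannot be told apart in the shared stretches. *Serbp1* was at 1051 ± 58.0 CPM (SD, n = 4) in controls and 1089 ± 35.3 in knockouts, with a log2 fold change of 0.05 and an edgeR adjusted p of 0.801. Without the library labelled control 3 these were 0.09 and 0.454, with an unadjusted P of 0.0323. The part of *Serbp1* reads in the counts of *Il12rb2* was not tested.

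**Figure D2:**
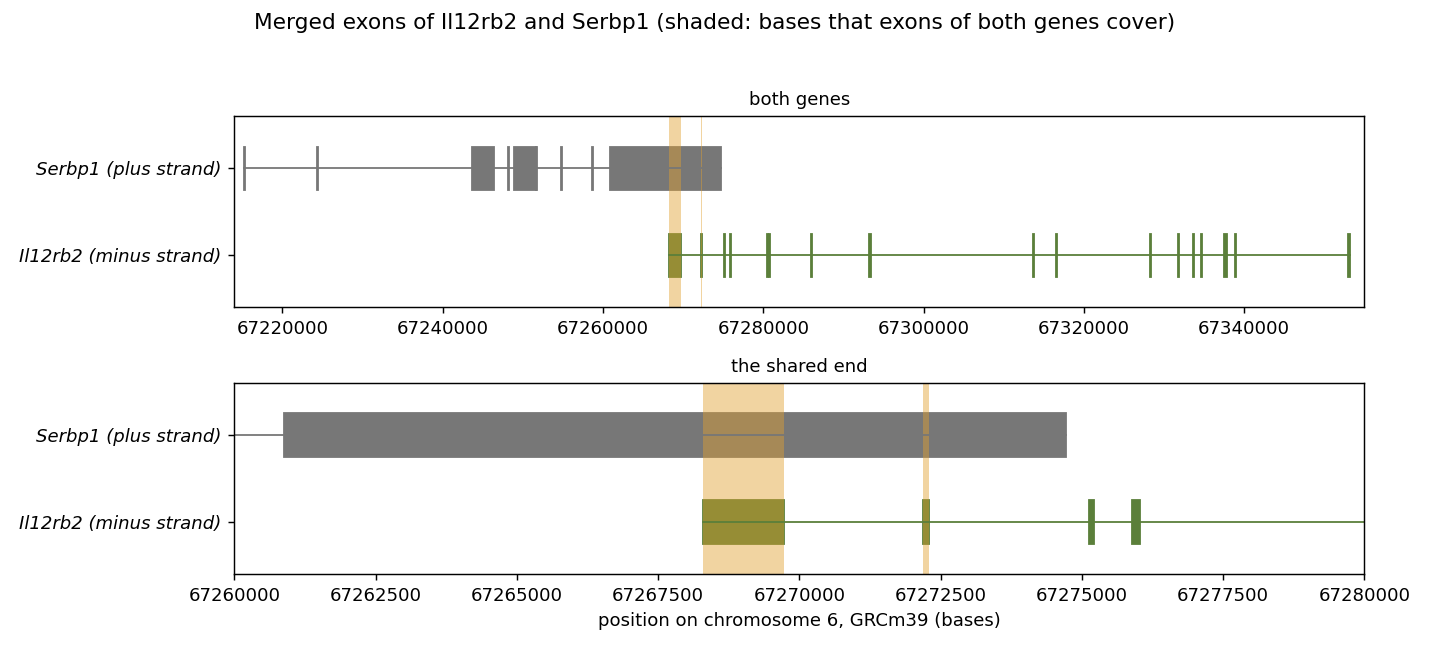
Exons of *Il12rb2* (green) and *Serbp1* (grey) on chromosome 6 of GRCm39, in bases, from GENCODE, for both genes (top) and for the end where they meet (bottom). The shaded stretches, 1519 bases in all, are covered by exons of both genes, and the largest runs from 67268302 to 67269720.

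*Il4ra* (ENSMUSG00000030748) encodes the chain that binds IL-4 and, with other chains, IL-13, and is the receptor of the T_H_2 set. It lies on chromosome 7 from 125151292 to 125178646. Its level was 187, 192, 179 and 197 CPM in controls 1 to 4 and 185, 170.1, 191 and 182 in knockouts 1 to 4. The genotypes overlapped over most of their range, with knockout 2 lowest and control 4 highest. With a log2 fold change of −0.05, a standard error of 0.0454 and an adjusted p of 0.826, the 95% interval ran from −0.15 to 0.04. *Cxcr3* (ENSMUSG00000050232), on the X chromosome from 100775141 to 100777875, encodes a chemokine receptor that T-bet induces and that guides T_H_1 cells into inflamed tissue. It had 1.23, 2.40, 2.31 and 1.91 CPM in controls and 3.34, 1.19, 1.80 and 3.19 in knockouts. Knockouts 1 and 4 were above every control, while knockout 2 was below every control. *Cxcr3* had a log2 fold change of 0.27 with an interval from −0.42 to 0.97 and an adjusted p of 0.882. With 1 library left out its log2 fold change ran from 0.067 without knockout 1 to 0.50 without knockout 2. It was 0.36 without the library labelled control 3, and it turned to −0.40 without knockouts 1 and 4. No more than 47 counts lay behind any value of *Cxcr3*.

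The signal transducers *Stat4* and *Stat6* carry the IL-12 and the IL-4 signal from receptor to nucleus. *Stat4* (ENSMUSG00000062939) lies on chromosome 1 from 52026307 to 52146348. It had 68.1, 69.1, 65.5 and 46.6 CPM in controls 1 to 4 and 57.1, 58.6, 54.0 and 59.8 in knockouts 1 to 4. Controls 1 and 2 and the library labelled control 3 were above all knockouts, and control 4 was below all of them. Over all libraries the log2 fold change of *Stat4* was −0.12 with a standard error of 0.0911 and an adjusted p of 0.794. Without control 4 it was −0.24, with 8.53e-04 as its unadjusted P and 0.0738 as its adjusted p in edgeR, the lowest over its 17 alternatives, in which the adjusted p reached 1.00. The same library was also the lowest control for *Il12rb2*. GENCODE exons of *Stat4*, which run to 52151423, beyond the span given above, overlap noncoding transcripts on both strands. How much of this overlap lies within that span was not tested. None of the 8 counts of *Stat4* is within 0.02 of a whole number.

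*Stat6* (ENSMUSG00000002147), on chromosome 10 from 127478855 to 127496826, had 286, 308, 299 and 283 CPM in controls and 289, 299.7, 295 and 295 in knockouts. All 4 knockouts lay inside the range of the controls. Between genotypes its log2 fold change was 0.00 with a standard error of 0.0394 and an interval from −0.08 to 0.08, so a change of more than 1.06-fold upward or to under 0.946 of the control level lay outside the interval. Among the 9 tested members *Stat6* had the smallest log2 fold change.

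Of the T_H_1 transcription factors, *Tbx21* (ENSMUSG00000001444), the gene of T-bet, lies on chromosome 11 from 96988897 to 97006157. Controls 1 to 4 had 2.12, 2.11, 1.75 and 1.91 CPM and knockouts 1 to 4 had 1.52, 1.19, 3.08 and 2.78. The controls were close together, and no knockout fell among them: knockouts 1 and 2 were below all controls and knockouts 3 and 4 above all. The coefficient of variation was 8.94% in controls and 43.2% in knockouts, while counting error at these depths (19 to 41 counts) gives 18.9% and 18.1%. The means were 1.97 ± 0.176 CPM in controls and 2.15 ± 0.927 in knockouts (SD, n = 4), and the knockout mean lay between those pairs. *Tbx21* had a log2 fold change of 0.11 with an interval from −0.54 to 0.76 and an adjusted p of 0.950, so a difference within that interval is not excluded. Its direction turned without knockout 3, to −0.11, or without knockout 4, to −0.05. A test of the difference in spread between genotypes was not made.

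*Eomes* (ENSMUSG00000032446), a T-box factor of cytotoxic and memory cells related to T-bet, had 1.99, 2.47, 1.89 and 3.12 CPM in controls and 2.83, 1.88, 3.08 and 3.06 in knockouts. Knockouts 1, 3 and 4 lay between the highest controls, control 2 and control 4, and knockout 2 lay just under the lowest control. Its log2 fold change was 0.19 with an interval from −0.36 to 0.74 and an adjusted p of 0.898. *Runx3* (ENSMUSG00000070691), which acts with T-bet at the IFN-γ gene and silences the IL-4 gene, was the most abundant T_H_1 member per exon length. It had 176, 179, 162 and 174 CPM in controls and 179, 168, 178 and 180.0 in knockouts, and the genotypes overlapped almost fully. For *Runx3* the log2 fold change was 0.03 with a standard error of 0.0442 and an interval from −0.06 to 0.12.

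On the T_H_2 side, *Gata3* (ENSMUSG00000015619) encodes the factor that directs T_H_2 fate and that all T cells need at some level. It lies on chromosome 2 from 9861889 to 9894845. Its level was 64.3, 69.3, 71.3 and 61.4 CPM in controls 1 to 4 and 62.0, 68.3, 66.0 and 57.6 in knockouts 1 to 4. Knockout 4 was the lowest library and the library labelled control 3 the highest, with the remaining libraries interleaved. *Gata3* had a log2 fold change of −0.07 (standard error 0.0646), an interval from −0.20 to 0.07 and an adjusted p of 0.843. With 1 library left out its log2 fold change ran from −0.11 without knockout 2 to −0.025 without knockout 4. Without the library labelled control 3 it was −0.034, and without knockouts 1 and 4 it was 0.012. In fold terms the interval ran from 0.868 to 1.05 of the control level.

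The ratio of *Tbx21* to *Gata3* sets the T_H_1 factor against the T_H_2 factor within each library. On the log2 scale of CPM it was −4.92, −5.04, −5.35 and −5.01 in controls 1 to 4 and −5.35, −5.84, −4.42 and −4.37 in knockouts 1 to 4. Knockouts 3 and 4 had the highest ratios and knockout 2 the lowest, and knockout 1 stood level with the library labelled control 3. The spread followed *Tbx21*, since *Gata3* varied little. The means were −5.08 ± 0.186 in controls and −4.99 ± 0.721 in knockouts (SD, n = 4). Per kilobase of exon, *Gata3* was at 14.6 ± 0.998 CPM in controls and *Tbx21* at 0.793 ± 0.0709 (SD, n = 4).

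*Ifng* (ENSMUSG00000055170), the signature cytokine gene of T_H_1 cells, was near the limit of detection. It had 10, 3, 14 and 5 counts in controls 1 to 4, or 0.685, 0.218, 0.981 and 0.354 CPM. In knockouts 1 to 4 it had 11, 1, 4 and 7 counts, or 0.799, 0.0627, 0.301 and 0.475 CPM. The genotypes overlapped throughout, with the library labelled control 3 highest and knockout 2 lowest, at under the amount of 3 counts. edgeR's filter on low counts removed *Ifng* from the main test, and without the filter its log2 fold change was −0.48, with 0.464 as its unadjusted P and 0.895 as its adjusted p in edgeR. The two-sided exact permutation test gave p = 0.543 for *Ifng*. RNA says nothing of IFN-γ protein, which was in any case neutralized in these cultures.

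**Figure D3:**
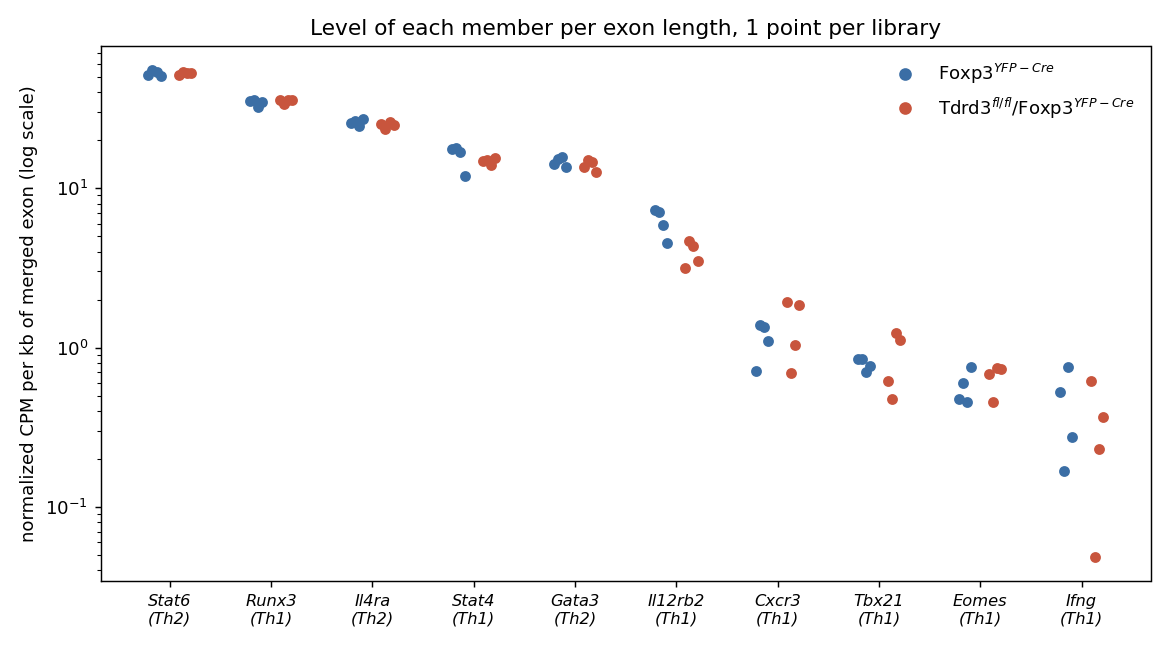
Normalized CPM per kilobase of merged exon (log scale) for each member, ordered by the control mean, with 1 point per library (blue, control; red, knockout). *Stat6* is highest, at 52.4 in both genotypes, and *Ifng* lowest, at 0.432 in controls and 0.316 in knockouts.

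Per kilobase of merged exon, levels can be set side by side between genes. In controls *Stat6* was highest at 52.4 CPM per kb, followed by *Runx3* at 34.5 and *Il4ra* at 25.9, and the libraries of these 3 genes did not overlap. *Stat4* at 16.05 and *Gata3* at 14.6 came next and overlapped each other. *Il12rb2* followed at 6.23 CPM per kb. The others were far lower, with *Cxcr3* at 1.13, *Tbx21* at 0.793, *Eomes* at 0.570 and *Ifng* at 0.432 CPM per kb, and each of these overlapped its neighbour. Knockout means stood in the same order, from 52.4 for *Stat6* to 0.316 for *Ifng*, with *Il12rb2* at 3.91. In both genotypes, the members that receive and pass on the IL-4 and IL-12 signals thus stood above the factor, receptor and cytokine that mark committed T_H_1 cells. For *Il12rb2* the level includes any *Serbp1* reads in its counts, a part that was not tested. Lengths depend on the annotation: with the canonical transcript instead, *Stat4* would be at 7.73 CPM per kb and *Gata3* at 20.5.

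No library was low or high for all members. Knockout 2 was the lowest library for 5 members, *Tbx21*, *Ifng*, *Cxcr3*, *Eomes* and *Il4ra*, and the highest for none. Control 4 was lowest for *Stat4* and *Stat6* and highest for *Eomes* and *Il4ra*. The 6 tested T_H_1 members comprised 4 higher and 2 lower in knockouts, with a median log2 fold change of 0.07. The 3 T_H_2 members comprised 1 higher and 2 lower, with a median of −0.05. Over all 11317 tested genes, 5732 were higher and 5585 lower, and the median was 0.00.

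RefSeq promoter windows, 250 bases before to 50 after a transcript start in GRCm38.p6, were at hand for all 10 members, 12 windows in all. Each was searched on both strands for letters that transcription factors of these pathways recognize. The FOXO letters TGTTTAC are held by 3.65% of all 32851 windows in RefSeq's table. For RUNX factors, TGTGGT, the share is 16.8%, and for GATA factors, AGATAA, it is 11.2%. T-box factors such as T-bet and EOMES recognize TCACAC, which 14.5% of windows hold. STAT factors recognize TTCNNNGAA, held by 8.3%, and no search letters overlapped each other in the members' windows. FOXO and GATA letters were in none of the 12 windows. RUNX letters were in windows of *Cxcr3*, *Runx3* and *Stat6*, T-box letters in those of *Cxcr3* and *Il12rb2*, and STAT letters in those of *Ifng* and *Il12rb2*. Windows of *Tbx21*, *Stat4*, *Eomes*, *Gata3* and *Il4ra* held none of the 5. The window of *Il12rb2*, at chr6:67376139-67376438 on the minus strand, is shown because this member alone had an unadjusted P below 0.05, with the STAT letters, which start 123 bases before the transcript start, and the T-box letters, 80 bases before it, in capitals.
Il12rb2: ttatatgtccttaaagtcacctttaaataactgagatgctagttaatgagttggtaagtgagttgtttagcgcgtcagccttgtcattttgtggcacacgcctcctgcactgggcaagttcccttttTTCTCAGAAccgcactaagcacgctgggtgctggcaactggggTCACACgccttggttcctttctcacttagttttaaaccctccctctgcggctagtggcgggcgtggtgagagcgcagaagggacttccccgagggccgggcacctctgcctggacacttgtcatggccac
Such matches describe the letters of the window and do not show that a factor binds there.

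Other genes of the T_H_1 program, from a list of 30, numbered 23 in the table, and all 23 were tested. The other 7, *Hlx*, *Twist1*, *Xcl1*, *Prf1*, *Havcr2*, *Klrg1* and *Ly6c2*, have no row in the table used and were not analysed here. By an unadjusted P below 0.05, 4 of these T_H_1 genes were lower in knockouts and 3 higher, beside 4.91% and 4.38% of all tested genes. Without control 4 these counts were 5 and 6, beside 5.75% and 5.03% of all genes tested there. Without knockouts 1 and 4 they were 3 and 0, beside 2.09% and 1.82%. None had an adjusted p below 0.05 in edgeR or DESeq2, while limma voom with quality weights and the replicate block gave 2 such genes each, beside 0.839% and 0.769% of all tested genes, and leaving out knockout 2 or control 4 gave 4, beside 1.42% and 0.789%. The median log2 fold change of the 23 was 0.02. *Jak1*, *Lta* and *Cbfb* were the most abundant genes of the list by CPM.

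The partner chain of the IL-12 receptor had a difference of the opposite sign to that of *Il12rb2*. *Il12rb1*, the chain shared by the IL-12 and IL-23 receptors, had 41.6, 44.1, 39.7 and 45.5 CPM in controls and 56.9, 43.8, 47.1 and 61.3 in knockouts. Knockouts 1 and 4, the lowest for *Il12rb2*, were the highest for *Il12rb1*, and knockout 2 overlapped the controls. Its log2 fold change was 0.29 with a standard error of 0.0886 and an adjusted p of 0.205. Without knockouts 1 and 4 the log2 fold change of *Il12rb1* was 0.088, with an unadjusted P of 0.294 in edgeR. Without knockout 2 it was 0.37, with an edgeR adjusted p of 0.0242. The log2 ratio of *Il12rb2* to *Il12rb1* was −0.88 ± 0.362 in controls and −1.82 ± 0.487 in knockouts (SD, n = 4), with overlap by knockout 2 and control 4. *Tyk2*, a kinase of the same receptor, had a log2 fold change of −0.11 and an adjusted p of 0.527.

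*Il18r1*, a chain of the receptor for IL-18, which acts with IL-12 to induce IFN-γ, had 21.3, 23.1, 22.8 and 14.4 CPM in controls and 16.05, 11.9, 15.2 and 14.5 in knockouts. As for *Il12rb2* and *Stat4*, control 4 was the exception among controls, here the only one within the knockout range. *Il18r1* had a log2 fold change of −0.50 (standard error 0.133) and an adjusted p of 0.128. *Ifngr1*, the ligand-binding chain of the IFN-γ receptor, had 75.8, 72.2, 78.0 and 65.6 CPM in controls and 58.7, 63.7, 65.2 and 60.5 in knockouts. It was the only gene of the 23 whose genotypes did not overlap, beside 4.89% of all tested genes. Its log2 fold change was −0.23 and its adjusted p 0.124. *Nkg7*, a cytotoxic granule gene, was at 7.05 ± 1.23 CPM (SD, n = 4) in controls and 4.24 ± 1.16 in knockouts, with a log2 fold change of −0.73 and an adjusted p of 0.152. Higher in knockouts were *Runx1*, a relative of *Runx3*, with a log2 fold change of 0.26 and an adjusted p of 0.134, and *Lta*, the lymphotoxin-α gene, with 0.27 and 0.138.

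From a list of 29 further T_H_2 genes, 22 were in the table and 20 were tested. *Il4*, *Il5*, *Bhlhe41*, *Ptgdr2*, *Ccr3*, *Areg* and *Il13ra1* have no row in the table used and were not analysed here, and *Il1rl1* and *Cd200r1* had too few counts. At an unadjusted P below 0.05, 5 were higher in knockouts and 0 lower, beside 4.38% and 4.91% of all tested genes. This split moved with the alternatives. It was 6 and 3 without control 4 (beside 5.03% and 5.75% of all genes tested there), 6 and 2 without knockout 2 (4.99% and 5.78%), 6 and 2 with limma voom and its weights (5.73% and 6.12%), and 1 and 2 without knockouts 1 and 4 (1.82% and 2.09%). None had an adjusted p below 0.05 in the main edgeR test or DESeq2, while limma voom with quality weights and the replicate block gave 2 each, leaving out knockout 2 gave 3 and leaving out control 4 gave 1, beside the same shares of all tested genes as for the T_H_1 list. The median log2 fold change was 0.05. *Rbpj*, *Junb* and *Jak3* were the most abundant. *Maf*, a factor that activates the IL-4 gene and is also used by regulatory and follicular T cells, had 11.6, 11.6, 14.3 and 21.2 CPM in controls and 28.5, 17.0, 20.1 and 32.7 in knockouts. Control 4 lay above knockouts 2 and 3, and knockouts 1 and 4 were above every control. For *Maf* the log2 fold change was 0.74 with a standard error of 0.189 and an adjusted p of 0.109. *Rbpj*, the DNA-binding partner of Notch, had a log2 fold change of 0.27 with an adjusted p of 0.0935. For *Gfi1* and *Nfil3* these were 0.31 with 0.478 and 0.24 with 0.283. *Pparg* had 2 to 9 counts in controls and 15 to 26 in knockouts, with a log2 fold change of 1.71 and an adjusted p of 0.102. It passed the filter on low counts through its knockout counts, and it is not tested where at least 10 counts are asked of every library. *Il13*, chosen after its values were seen because, unlike *Il4* and *Il5*, it has a row, had 2.05, 1.46, 2.45 and 1.84 CPM in controls and 2.54, 0.627, 1.80 and 2.31 in knockouts, with a log2 fold change of −0.11 and an adjusted p of 0.954. Like *Tbx21*, *Ifng* and *Cxcr3*, it was lowest in knockout 2.

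**Figure D4:**
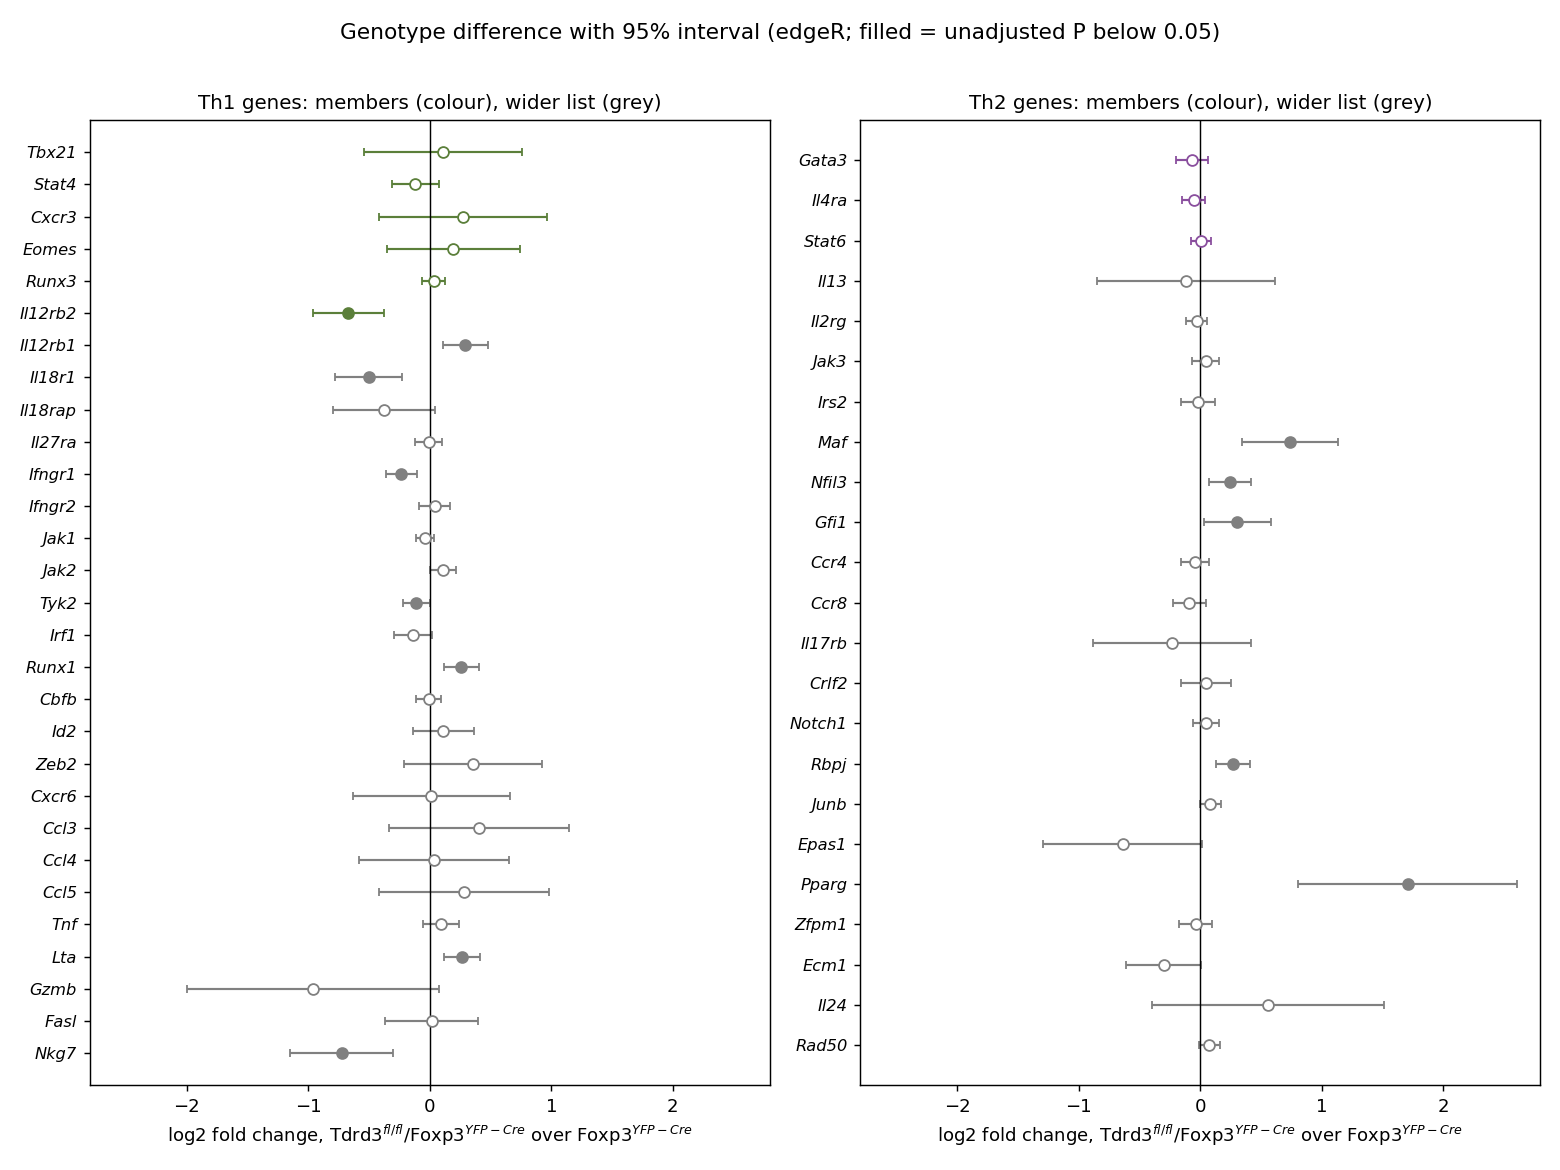
Log2 fold change of knockout over control (horizontal axis, 0 meaning no difference) with its 95% interval from edgeR for tested T_H_1 genes (left) and T_H_2 genes (right), members in colour and the longer lists in grey. Filled points have an unadjusted P below 0.05. *Il12rb2*, at −0.67, is the only filled member, and the 3 T_H_2 members lie between −0.07 and 0.00.

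The same few libraries stood out for *Il12rb2* and for most of the longer-list genes with an unadjusted P below 0.05, an observation made after seeing the values. Knockouts 1 and 4 were the pair of knockouts farthest from the controls for *Il12rb2* and for 9 of those 12 genes, beside 48.9% of all 1052 genes with such a P. Control 4 was the control nearest to the knockouts for *Il12rb2* and for 9 of the 12, beside 38.7% of the 1052. Without knockouts 1 and 4, *Il12rb2* had 0.00834 as its unadjusted P and 1.00 as its adjusted p, and 4 of the 12 had an unadjusted P below 0.05, beside 27.5% of the 1052. Those 4 were *Il18r1*, *Ifngr1*, *Nkg7* and *Pparg*, the last kept by the filter through its knockout counts. *Foxp3* was at 77.2 and 78.1 CPM in knockouts 1 and 4 and at 93.8 in control 4, the lowest of their genotypes. *Lyz2* had 9 and 18 counts in knockouts 1 and 4 and 0 in the other libraries. Over tested genes, knockouts 1 and 4 were the most alike pair of knockouts (chi-squared per degree of freedom 2.59, beside 3.78 to 4.85 for the other pairs), as controls 1 and 2 were among controls (2.701, beside 4.95 to 6.29). What sets these libraries apart was not tested.

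Marker genes bear on which cells the members' RNA came from. The 6 CD4 T cell markers summed to 1693 to 1795 CPM in controls and 1662 to 1742 in knockouts, led by *Cd4*. The 5 regulatory T cell markers, led by *Il2ra*, summed to 3428, 3339, 3491 and 3355 CPM in controls and 3147, 3259, 3203 and 3147 in knockouts, without overlap. Of these 5, *Foxp3*, *Il2ra* and *Ikzf2* were lower at an unadjusted P below 0.05 in edgeR, beside 4.91% of all tested genes. Their log2 fold changes were −0.31, −0.13 and −0.14, with adjusted p-values of 0.152, 0.152 and 0.433. For *Foxp3* the adjusted p was below 0.05 in 4 of 17 alternatives, at 0.0416 with limma voom and its weights, 0.0161 with the replicate block, 0.0104 without knockout 2 and 0.0337 without control 4, whereas without knockouts 1 and 4 the unadjusted P was 0.111. The other 2 were *Ctla4*, with a log2 fold change of 0.06 and an adjusted p of 0.736, and *Tnfrsf18*, with −0.06 and 0.824. Most of the sum was *Il2ra*, at 2254, 2179, 2370 and 2271 CPM in controls and 2026, 2169, 2082 and 2025 in knockouts. *Il2ra* alone of the 5 had genotypes without overlap, beside 4.89% of all tested genes. Since no sort for *Foxp3*-expressing cells is described, RNA of these markers can also come from other cells of the cultures. The part of these markers' difference in the level of *Il12rb2* was not tested.

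*Eomes*, *Runx3*, *Tbx21* and *Ifng* are also genes of CD8 T cells and natural killer cells. According to the Methods, the input was enriched for naïve CD4+ T cells by negative selection before culture, a step that depletes other cell types. The CD8 markers *Cd8a* and *Cd8b1*, led by *Cd8b1*, summed to 9.93, 8.08, 21.8 and 7.72 CPM in controls and 6.68, 7.15, 6.76 and 8.35 in knockouts. The library labelled control 3 stood apart, with 11.3 CPM of *Cd8a* where the other 7 libraries had 0.436 to 1.37. The log2 fold change of *Cd8a* was −2.15 with an adjusted p of 0.233, and −0.43 with 0.810 without that library. For *Cd8b1* these were −0.36 with 0.499, and −0.22 with 0.715 without it. The library also had 9.25 CPM of *Gzmb*, a granule protease gene named after its values were seen, beside 1.35 to 1.99 in the other controls. In that library *Ifng* was highest of all, but *Runx3* was lowest of all and *Eomes* and *Tbx21* were lowest of the controls. Without it the log2 fold changes of *Eomes*, *Tbx21* and *Runx3* were 0.10, 0.06 and 0.00. Natural killer cell markers *Ncr1*, *Klrb1c* and *Klre1* have no row and were not analysed here, and the remaining 2, led by *Klrd1*, summed to 0.354 to 2.46 CPM.

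Of the 2 markers listed for innate-like T cells, *Zbtb16* has no row and was not analysed here. The other, *Cd1d1*, was at 5.17 to 9.79 CPM in controls and 5.45 to 7.52 in knockouts. Its log2 fold change was −0.14 with an edgeR adjusted p of 0.889. The B cell marker *Ms4a1* has no row, and the other 4, led by *Cd79b*, summed to 2.46 to 4.35 CPM in controls and 2.47 to 3.16 in knockouts. The myeloid list had 2 of 8 markers in the table, *Cd68* and *Lyz2*, which summed to 0.439 to 2.11 CPM, with *Lyz2* at 0 in all libraries except knockouts 1 and 4, where it was above *Cd68*. Of 5 erythroid markers only *Hbb-bt* had a row, at 0.225 to 0.911 CPM. The 2 myeloid markers and the B cell markers *Cd79a* and *Pax5* had too few counts to be tested. Among tested markers other than those of CD8 and regulatory T cells, *Cd28* alone had an unadjusted P below 0.05 in edgeR. The share over all tested genes was 9.3%. The log2 fold change of *Cd28* was −0.10 with an adjusted p of 0.494.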

How the data were processed

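Estimated counts per gene had been deposited by the authors, who aligned the reads to GRCm39 with STAR 2.7.8a, quantified genes in Partek Flow by its E/M method and filtered them. Groups follow the labels, 4 libraries per genotype, although the Methods state 3. Estimated counts were rounded, normalized with TMM and tested for genotype with edgeR 4.0.16 (R 4.3.3) after filterByExpr, which kept 11317 of 11911 genes. Single genes were also compared by a two-sided exact permutation test of log2(CPM + 0.5) over 70 arrangements. DESeq2 1.42.0, limma 3.58.1 (voom with quality weights), other scalings and filters, a replicate block and left-out libraries were alternatives, 17 in all. Coordinates are those of the table, with ends 1 base before its stop values, and exon lengths come from GENCODE mouse release 39, clipped to those coordinates. Named genes were the members, *Tdrd3*, *Foxp3*, *Serbp1*, *Il13*, *Gzmb*, longer-list genes with an unadjusted P below 0.05 or among the 3 most abundant, and markers. Members and lists were chosen with earlier results of these data known. Some entries of the planned lists are not reported here.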

Additional observations from a re-analysis of the deposited data

Results flagged for a closer look

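In 9 of 105 groups of 4 libraries, drawn from the members, markers and other named genes, 1 library lay far from the other 3 of its genotype (by Dixon's ratio of the gap to the range), where chance gives about 1 in 20. The 2 shares are not strictly comparable, since *Gzmb* was named after its values were seen and *Pax5* had 0 to 23 counts. *Stat4* was at 46.6 CPM in control 4, with the other controls at 65.5 to 69.1, and *Runx3* was at 168 CPM in knockout 2, with the other knockouts at 178 to 180.0. *Runx1* was at 77.3 CPM in control 4 (others 63.6 to 65.1). *Cd3e* was at 160.4 CPM in knockout 3 (others 138 to 142). The library labelled control 3 had 11.3 CPM of *Cd8a* (others 0.873 to 1.37), 9.25 CPM of *Gzmb* (others 1.35 to 1.99) and 1.61 CPM of *Pax5* (others 0.205 to 0.425). In knockout 4, *Pax5* was at 0 (others 0.188 to 0.225) and *Cd68* at 0.883 CPM (others 0.436 to 0.451).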

How the results depend on the processing

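The number of genes with an adjusted p below 0.05, 30 in the main edgeR test, was 78 with DESeq2, 95 with limma voom (with quality weights throughout), 87 with the replicate block, 3 without knockouts 1 and 4 (an alternative chosen after seeing the data) and 6 to 162 when 1 library was left out. The number with an unadjusted P below 0.05, 1052, was 450 without knockouts 1 and 4 and 697 to 1230 with 1 library left out. Among members the number with an adjusted p below 0.05, 0, was 1 with DESeq2, limma voom, the replicate block, at least 10 counts in every library and unrounded counts, and 0 to 1 with 1 library left out. The number of members with an unadjusted P below 0.05, 1, was 1 to 2 with 1 library left out, *Stat4* being added without control 4. The log2 fold change of *Tbx21* was −0.013 with limma voom and −0.11 to 0.32 with 1 library left out, and that of *Stat6* was −0.017 to 0.026. Without knockouts 1 and 4, *Cxcr3* was at −0.40 and *Gata3* at 0.012. The cause of these changes was not tested. *Stat4*, *Eomes*, *Runx3*, *Il12rb2* and *Il4ra* kept their direction in all 17 alternatives.

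The sources used here give no pairing of the libraries by replicate number. Deviations of same-numbered libraries correlated at −0.05, 0.00, −0.04 and 0.07, and those of other pairs at −0.10 to 0.09. Such correlations do not exclude a pairing. Under the replicate block in edgeR, 87 genes had an adjusted p below 0.05, beside 30 without it. *Il12rb2* had an adjusted p of 0.00622 there. *Tbx21*, *Cxcr3*, *Eomes* and *Ifng* had at most 47 counts a library. Strand and sequencing depth before filtering are not given in the sources used here.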
